A study of Homo sapiens with 4 samples.

Results

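The genes described here take up, move, store, release and sense iron in U937 cells. They were chosen by name: all probe sets annotated to TFRC, SLC11A2, SLC11A1, FTL, FTH1, NCOA4, SLC40A1, ACO1, IREB2 or HMOX1. Of these 10 genes, 8 had a named probe set, out of 19775 genes in the whole series, and these 8 were covered by 24 probe sets. FTH1 and IREB2 were not analysed here.

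U937 is a human myelomonocytic line that arose from a histiocytic lymphoma. The PIR knock-down cells carried the shPIR#7 hairpin in the lentiviral pSICO-R vector, and the control U937 cells carried the same vector empty, so the control expressed no hairpin and 1 hairpin stands for the knock-down. The RNA of each condition was a single pool of 3 extractions in equal parts, and each pool was hybridised to 2 HG-U133 Plus 2.0 arrays, which report 1 signal intensity per probe set. Errors given here are SDs between the 2 arrays of a pool, so they hold hybridisation error only, the comparison is between 2 pools, and no p-value for the knock-down can be given. In bulk RNA, fewer cells of a type and less RNA per cell cannot be told apart.

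Iron reaches most cells bound to transferrin, which the transferrin receptor (TFRC) carries into endosomes, where the transporter SLC11A2 passes ferrous iron into the cytosol. Surplus iron is held in ferritin, a cage of heavy (FTH1) and light (FTL) chains that the receptor NCOA4 delivers to lysosomes for breakdown, and it leaves the cell through ferroportin (SLC40A1). When iron is short, the iron regulatory proteins IRP1 (ACO1) and IRP2 (IREB2) bind RNA hairpins called iron-responsive elements. Binding blocks translation of the ferritin and ferroportin messages and protects the TFRC message from decay. Macrophages also recover iron from red cells: heme oxygenase (HMOX1) frees it from heme and SLC11A1 moves it out of the phagosome. Pirin, the product of PIR, is itself an iron-binding nuclear protein. Because the iron regulatory proteins act on translation of the ferritin and ferroportin messages, the levels of these messages are not protein levels.

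The hairpin bound by the iron regulatory proteins lies at the start of the light ferritin message and is shown first because binding there blocks translation of this message. The site is taken from RefSeq (GRCh38.p14, chr19:48965329-48965358, plus strand, in the 5′ untranslated region of FTL), with the loop in capitals.
FTL: gtctgtctcttgcttcaaCAGTGTttggac
A search of the sense strand for a C, 5 bases, the loop CAGTGN and 5 bases able to pair with the 5 before the loop (G-T pairs allowed) found this hairpin from position 33 of the FTL transcript. It was present in 8 of 35116 start-site windows (0.0228%) when the first 50 transcribed bases were searched, and that of ALAS2, the erythroid enzyme of heme synthesis, was among them. Longer leaders were not searched.

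The stretches just before the start sites of the exporter and of the transferrin receptor are shown because these genes bring iron out of and into the cell and had unequal differences below. Both are on the minus strand of GRCh38.p14 and run 5′ to 3′ over the last 100 bases before the start, SLC40A1 at chr2:189580787-189580886 and TFRC at chr3:196082091-196082190. Capitals mark TATAA, the core of a TATA box, and ACGTG, the core of a hypoxia response element.
SLC40A1: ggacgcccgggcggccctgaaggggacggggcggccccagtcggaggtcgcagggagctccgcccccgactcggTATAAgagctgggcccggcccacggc
TFRC: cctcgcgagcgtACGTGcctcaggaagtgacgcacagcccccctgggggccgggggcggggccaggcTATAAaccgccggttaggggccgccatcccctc
TATAA began 26 bases before the SLC40A1 start and 33 bases before the TFRC start; among the other windows searched for these genes it was found in 1 of SLC11A2, 194 bases before the start. On both strands of 300-base windows, from 250 bases before to 50 after each start, TATAA occurred in 20.4% of all 35116 windows and ACGTG in 21.4%. ACGTG was found 88 bases before the TFRC start and, on the other strand, 11 bases before that of FTL. TGACNNNGC, the core of the antioxidant response element, was found in 13.3% of all windows and, among 13 windows of 8 of the 10 genes, only in 1 of NCOA4. No window of FTH1 or HMOX1 was used. The marked motifs do not overlap each other. These matches describe letters and not binding sites.

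Signals were compared as log2(signal + 18), where 18 is close to the mean 25th percentile of signal, and differences are knock-down minus empty vector on that scale, which understates differences of dim probe sets. Each gene stands on its brightest probe set. A probe set was called measured if, in 1 pool or both, neither array fell under its own 60th percentile of signal, which lay between 116 and 126. The 1.5-fold rule required a difference of 0.58 or more (1.5-fold), the same sign and a size of 0.29 or more in each of the 4 array-by-array differences, and a higher pool with no array under that limit. The 2-fold rule asked for 1 and 0.5 instead.

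PIR was at 83.4 and 91.5 on the knock-down arrays, against 1813 and 1882 on the empty-vector arrays, a log2 difference of -4.15. Over 10288 measured genes the median SD between arrays of 1 pool, on the log2 scale, was 0.07 for knock-down and 0.06 for empty vector. The 3′ to 5′ signal ratio of GAPDH ran from 0.98 to 1.00 on the knock-down arrays and from 0.96 to 1.02 on the empty-vector arrays. Of the myelomonocytic markers 7 of 8 were measured, without MPO. Of 6 erythroid markers only KLF1 was measured, of 8 hepatocyte markers only SERPINA1, which monocytes also make, and of 7 T, B and epithelial markers only CD79A.

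Among the 8 iron genes, SLC40A1 was the only one to meet the 1.5-fold rule, as higher in the knock-down pool, and none was lower by it. Of all 10288 measured genes, 8.51% were higher and 4.95% lower by the same rule. None of the 8 met the 2-fold rule in either direction, which 3.54% of measured genes did. In 7 of the 8 genes both knock-down arrays lay above both empty-vector arrays, and in none below, where 40.9% of all measured genes lay above and 31.2% below. The median difference of the 8 genes was 0.26, against 0.05 for all measured genes, and the differences ran from -0.02 for SLC11A1 to 0.76 for SLC40A1. The plot of signal by array shows each gene.

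**Figure D1:**
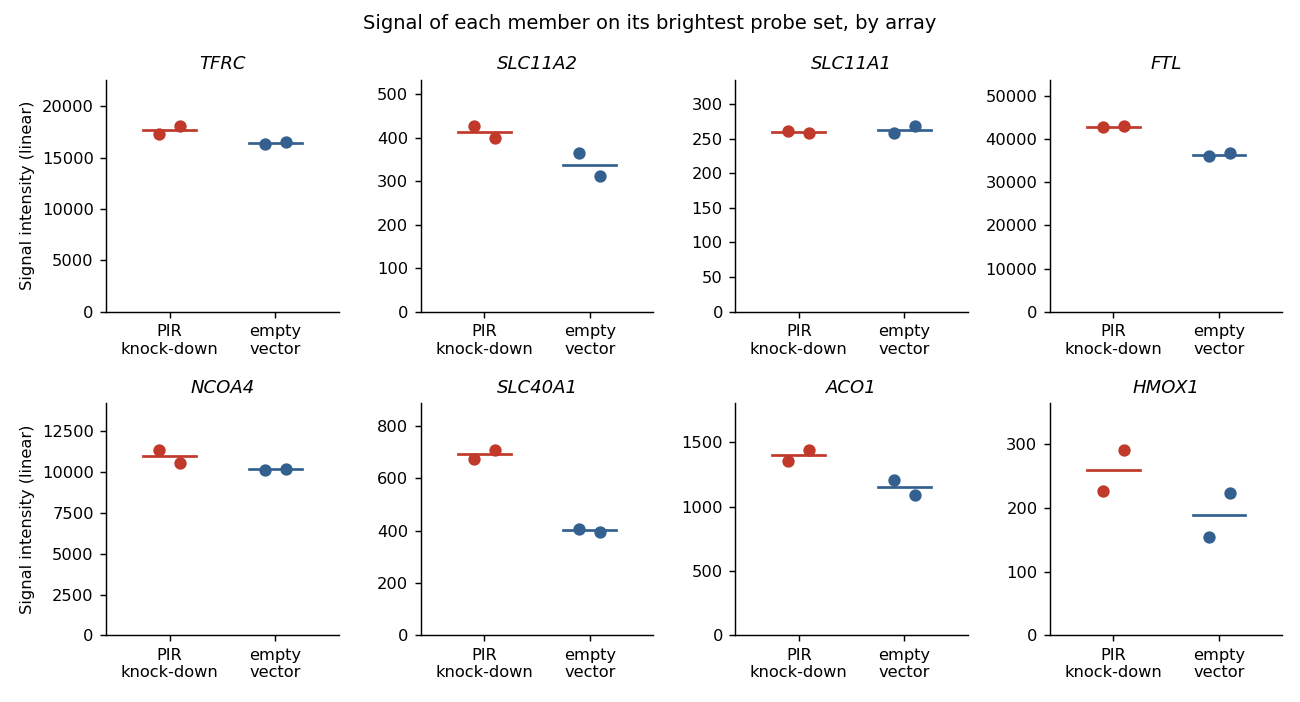
Signal intensity (linear axis from 0, a scale of its own in each panel) of the brightest probe set of each of the 8 genes on each array, knock-down arrays in red and empty-vector arrays in blue, with a line at the mean of the 2 arrays. Relative to its own level SLC40A1 shows the widest gap between the pools, 673 and 708 in the knock-down pool against 408 and 394 in the empty-vector pool, and the SLC11A1 arrays overlap.

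TFRC, the transferrin receptor, gave 17301 and 18059 in the knock-down pool on 208691_at, against 16275 and 16540 in the empty-vector pool. The pools did not overlap, but the log2 difference was only 0.11, with array-by-array differences from 0.06 to 0.15. Its next probe sets, 207332_s_at and 237215_s_at, gave 0.08 and 0.33, the last from 2020 and 1816 in the knock-down pool against 1427 and 1620 in the empty-vector pool. The other 2 TFRC probe sets were below the limit on all arrays but 1, and 240686_x_at, at 54.1 and 21.9 in the knock-down pool against 104 and 131.0 in the empty-vector pool, went the other way. Averaging all 5 probe sets gave -0.08. Of these, 240686_x_at alone had a negative difference, -1.33, while the other dim probe set, 237214_at, gave 0.42 with overlapping pools. The direction of the TFRC average therefore depended on the dim 240686_x_at. On the brightest probe set the TFRC difference was 0.03 after quantile normalization and 0.23 after scaling to a common median.

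SLC11A2, also called DMT1, which moves ferrous iron out of the endosome, gave 426 and 398 in the knock-down pool on 203124_s_at, against 364 and 312 in the empty-vector pool. The pools did not overlap, and the log2 difference was 0.28. The next brightest probe sets, 203125_x_at and 203123_s_at, differed by 0.51 and 0.38, again without overlap. On 210047_at the pools overlapped, with 165 and 192 in the knock-down pool against 209 and 141 in the empty-vector pool. The SLC11A2 message has alternative starts and ends, which these probe sets cannot assign here.

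SLC11A1, also called NRAMP1, the phagosomal metal transporter of macrophages, gave 261 and 258 in the knock-down pool on 210422_x_at, against 258 and 268 in the empty-vector pool. The pools overlapped and the log2 difference was -0.02. Averaging all SLC11A1 probe sets gave -0.31, and leaving out those ending in _x_at gave 0.31. That 0.31 came from 210423_s_at, which was below the brightness limit and whose array pairs differed by -0.04 to 0.67. Scaling arrays to a common median, which raised the median of all measured genes by 0.12, gave 0.10. A second measured probe set, 217473_x_at, gave 195 and 44.3 in the knock-down pool against 239 and 218 in the empty-vector pool, a log2 difference of -1.10. There the knock-down arrays disagreed with each other by more than 4-fold, and single array pairs differed by -2.05 to -0.15, so the value rests on 1 array. The 4 other SLC11A1 probe sets, 210423_s_at among them, were below the limit.

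FTL, the light chain of ferritin, gave 42720 and 42956 in the knock-down pool on 212788_x_at, against 36020 and 36745 in the empty-vector pool. The pools did not overlap and differed by 0.24, or 1.18-fold. Its second probe set, 213187_x_at, gave a like difference of 0.25, from 34863 and 36225 in the knock-down pool against 29918 and 29688 in the empty-vector pool. After quantile normalization, which makes the distribution of signals equal on all arrays, the FTL difference was 0.03. Both probe sets end in _x_at, which marks probes that can be shared with related sequences, and ferritin has many pseudogene copies. The signal therefore cannot be taken as specific to FTL. Both lay above the 99th percentile of every array, where scanner saturation was not tested.

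NCOA4, the receptor that carries ferritin to the lysosome, gave 11363 and 10554 in the knock-down pool, against 10142 and 10199 in the empty-vector pool, on its only probe set, 210774_s_at. The log2 difference was 0.11, and array pairs differed by 0.05 to 0.16. The SD between the knock-down arrays was 0.08 on the same scale, so the gap was near the hybridisation error.

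SLC40A1, or ferroportin, the known exporter of non-heme iron, gave 673 and 708 in the knock-down pool on 223044_at, against 408 and 394 in the empty-vector pool. The knock-down mean was 691 ± 24.8 and the empty-vector mean 401 ± 9.40 (SD, n = 2 arrays each), a log2 difference of 0.76 or 1.69-fold. Single array pairs differed by 0.70 to 0.82, and those of the other genes, except HMOX1, all lay below this range. A second SLC40A1 probe set, 233123_at, was below the brightness limit at 95.0 and 94.8 in the knock-down pool against 75.6 and 78.4 in the empty-vector pool. It went the same way without overlap, by 0.25, and averaging both probe sets gave 0.50, under the 1.5-fold limit.

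ACO1, whose protein is cytosolic aconitase when it holds an iron-sulfur cluster and IRP1 when it does not, gave 1356 and 1442 in the knock-down pool on 207071_s_at, against 1207 and 1094 in the empty-vector pool. The pools did not overlap, and the log2 difference was 0.28. Its other probe set, 237622_at, was below the limit, and its array pairs differed by -1.80 to 1.11. Averaging both gave -0.03.

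HMOX1, which breaks heme down to iron, biliverdin and carbon monoxide, gave 227 and 290 in the knock-down pool on its only probe set, 203665_at, against 154 and 223 in the empty-vector pool. The lower knock-down array and the higher empty-vector array nearly met. The log2 difference of 0.43 therefore had array-by-array differences from 0.02 to 0.84. HMOX1 met the 1.5-fold rule without knock-down replica 1, at 0.60, and without empty-vector replica 2, at 0.67, but stood at 0.19 without empty-vector replica 1. Single arrays therefore decided its call.

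In order of difference the 8 genes ran SLC40A1, HMOX1, ACO1, SLC11A2, FTL, TFRC, NCOA4 and SLC11A1. HMOX1 overlapped in its array-by-array range with every other gene but SLC11A1. ACO1, SLC11A2 and FTL, at 0.28, 0.28 and 0.24, could not be ordered, and neither could TFRC and NCOA4, both at 0.11. Of 15 measured probe sets, 12 had both knock-down arrays above both empty-vector arrays and 1, of SLC11A1, had both below. Over all 18999 measured named probe sets, 38.5% lay above and 32.3% below. Probe sets of the same gene share its message and the same arrays, so the count of 12 in part repeats the count by gene. The 9 probe sets below the limit differed by -1.33 to 0.42, and in 6 of them the pools overlapped. The plot of differences by probe set shows this spread.

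**Figure D2:**
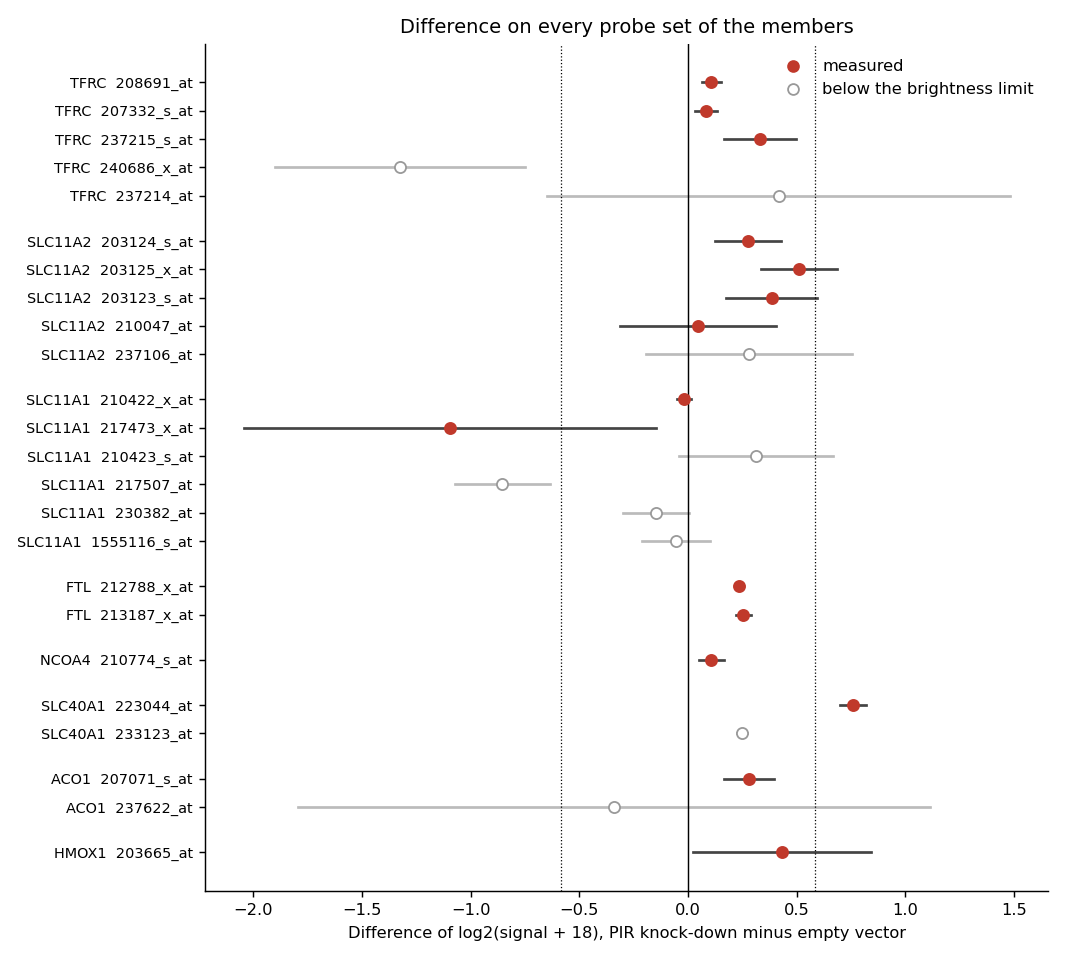
Log2 difference, knock-down minus empty vector, on each of the 24 probe sets, as the mean difference (point) with the range of the 4 array-by-array differences (line); open points are below the brightness limit and dotted lines mark 1.5-fold. Only the SLC40A1 probe set 223044_at has its whole range beyond 1.5-fold on the higher side, and the widest ranges belong to dim probe sets and to SLC11A1.

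Other genes of iron and heme handling were counted in lists that left out the 8. Of 104 such genes, 78 were measured, and 6 were higher and 2 lower by the 1.5-fold rule. That is 7.69% higher and 2.56% lower, near the 8.51% and 4.95% over all measured genes, and the median difference was 0.10. The lists of uptake, storage, export and sensing had medians of 0.23, 0.11, 0.11 and -0.10 over 11, 13, 7 and 5 measured genes.

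Among uptake genes CYBRD1, a ferric reductase, had the largest difference. Its signals were 2765 and 2940.4 in the knock-down pool, against 1308 and 988 in the empty-vector pool, a log2 difference of 1.31, and its second probe set gave 0.63. It met the 2-fold rule. MELTF, the membrane-anchored transferrin relative melanotransferrin, differed by 0.78 on its brightest probe set, with 860 and 876 in the knock-down pool against 500 and 498 in the empty-vector pool, but by -0.53 on the other measured one. No other uptake gene met the rule, and 11 of 22 were below the limit, TF among them.

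Export and systemic genes went both ways. FLVCR1, a choline transporter also described as a heme exporter, gave 947 and 1309 in the knock-down pool, against 2388 and 2269 in the empty-vector pool, a log2 difference of -1.05, with -1.07 on its second probe set. Its relative FLVCR2 was higher, by 0.77, with 580 and 604 in the knock-down pool against 340 and 338 in the empty-vector pool, and by 0.41 on its second measured probe set. SMAD5, which relays the bone morphogenetic protein signal that drives hepcidin in liver, had 243 and 213 in the knock-down pool against 647 and 486 in the empty-vector pool, a log2 difference of -1.24. BMPR2, a receptor of that signal, was higher by 0.61. HAMP, the hepcidin gene and a regulator of ferroportin protein, did not reach the brightness limit on both arrays of either pool.

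Storage and ferritin turnover held 1 gene that met the rule, RB1CC1, a subunit of the complex that starts autophagy, at 0.60 with 3960 and 3885 in the knock-down pool against 2583 and 2590 in the empty-vector pool; its second probe set gave 0.33. None of the 5 measured sensing genes met it, and they ran from -0.16 to 0.17. Of 26 measured genes of mitochondrial iron and iron-sulfur clusters, BOLA1 alone met it, at 0.75, with empty-vector signals of 73.1 and 141 that differed from each other by a like amount. None of 8 heme synthesis genes met the rule. Their median was 0.25, and 7 of 8 were positive, as were 55.2% of all measured genes. None of 8 measured genes of heme breakdown and its control met it, with 4 positive and 4 negative.

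**Figure D3:**
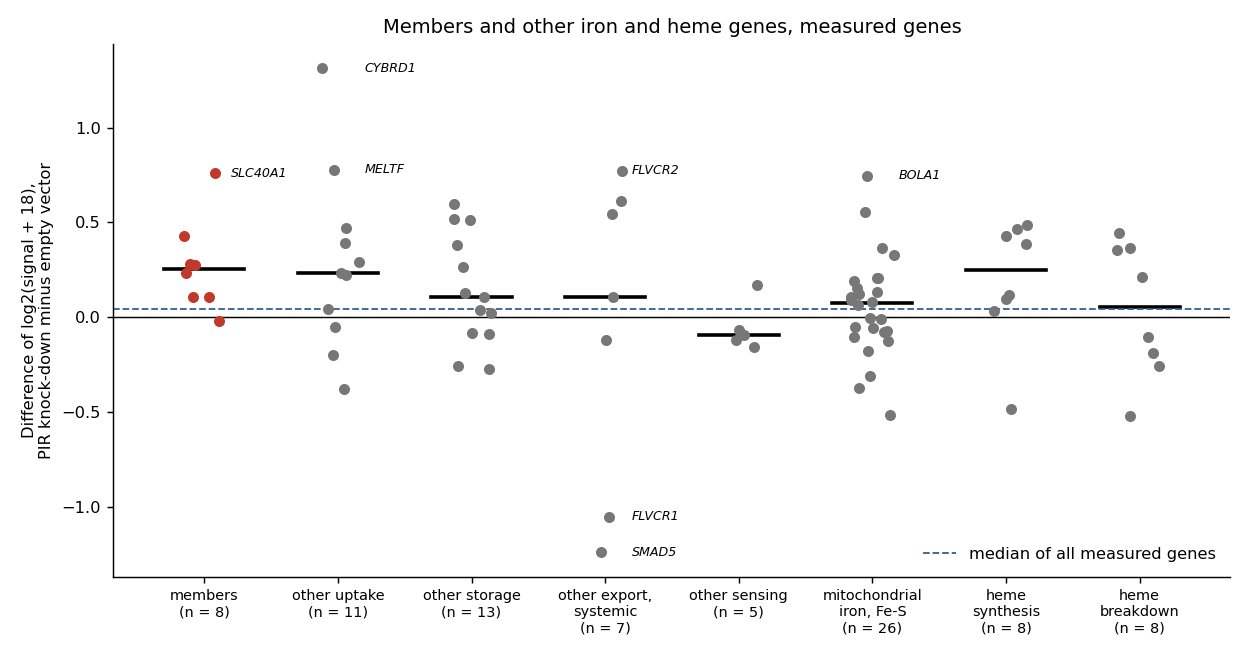
Log2 difference, knock-down minus empty vector, of every measured gene in each list (points), with the list median (black bar) and the median of all 10288 measured genes (dashed line). SLC40A1 stands at 0.76 among the 8 genes in red, CYBRD1 at 1.31 is the highest point, and FLVCR1 and SMAD5 are the lowest, at -1.05 and -1.24.

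Proliferation and maturation genes also differed between the pools. Of all measured genes, 4.95% were lower and 8.51% higher by the 1.5-fold rule, with a median of 0.05. Of 11 proliferation markers, 8 were lower by this rule and none higher, with a median of -0.71. The differences of these markers ran from -1.28 to 0.28, with 10 negative and 1 positive. The summed signal of all 11, the positive one included, was 66965 to 71384 on the knock-down arrays and 98795 to 99220 on the empty-vector arrays. MKI67 and PLK1, known markers of dividing cells, differed by -1.28 and -1.21. Of 9 measured macrophage maturation genes, 8 were higher and none lower, with a median of 1.18, and the summed signal of all 13 was 25426 to 25553 on the knock-down arrays against 11571 to 12339 on the empty-vector arrays. CX3CR1, a chemokine receptor, and ITGAM, an integrin chain, led them at 2.31 and 1.90. CD14, MSR1, MRC1 and CD163 were below the limit, and no marker was at 0. Dividing cells are known to carry much TFRC, and macrophages much SLC40A1; the part of these shifts in the TFRC and SLC40A1 values was not tested.

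**Figure D4:**
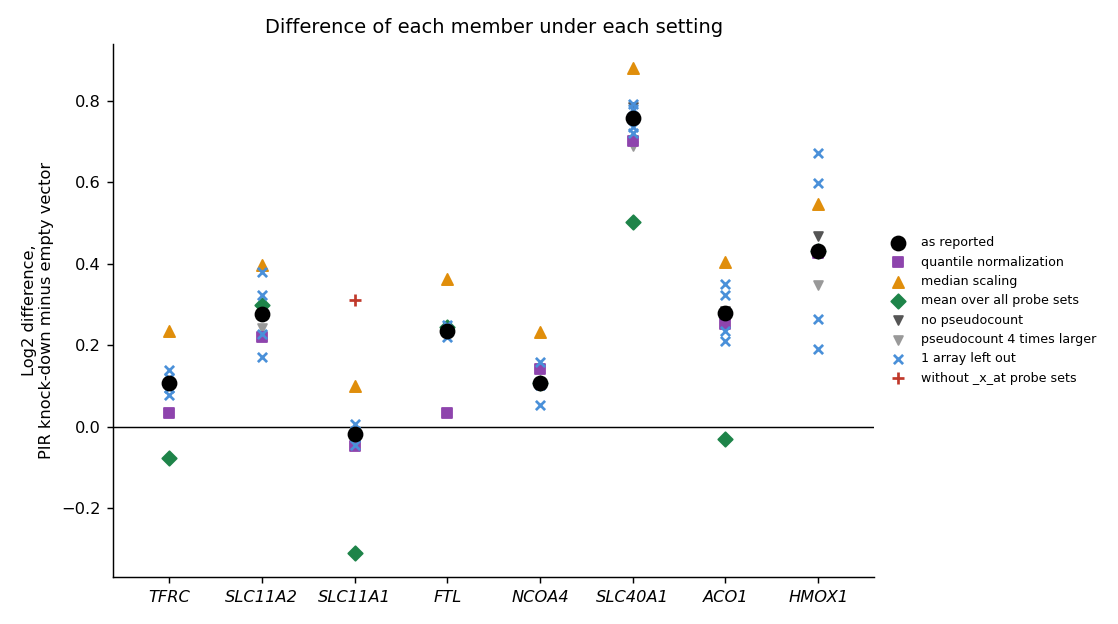
Log2 difference of each gene, knock-down minus empty vector, as reported (black) and under each other setting. SLC40A1 stays between 0.50 and 0.88, FTL and TFRC drop to 0.03 after quantile normalization, HMOX1 spreads from 0.19 to 0.67 with single arrays left out, and TFRC and ACO1 turn to -0.08 and -0.03 when all probe sets are averaged.

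The plot of differences by setting sets these values side by side. SLC40A1 differed by 0.70 after quantile normalization and by 0.72 to 0.79 with single arrays left out. SLC11A2 stayed between 0.17 and 0.40 and NCOA4 between 0.05 and 0.23. The sign held in every setting tried for SLC40A1, HMOX1, SLC11A2, FTL and NCOA4. HMOX1 and NCOA4 have a single probe set, so averaging probe sets could not change them. FTL had no value without probe sets ending in _x_at. The sign turned in at least 1 setting for TFRC, ACO1 and SLC11A1. For TFRC and ACO1 it turned only when all probe sets were averaged.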

How the data were processed

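Per the submitters' processing notes, GCOS made the signals, in a version and with settings not stated here. Values in the deposited table are signal intensity on a linear scale, and the mean after trimming 2% of probe sets at each end was 500.07 on each array, so the authors' values share a scale; they are neither centred nor ratios. Probe sets were named from the platform annotation, with symbols updated by gene identifier: 41091 had 1 symbol, 1801 several and 11721 none, 41037 matched the RefSeq table, and 62 controls were left out. The 2 arrays of a pool were averaged as 1 sample, without a test. The median signal was 62.7 and 68.6 in the knock-down pool, against 70.9 and 72.2 in the empty-vector pool. Named were PIR, the 8 genes and, per list, up to 4 genes meeting the 1.5-fold rule; KLF1, SERPINA1, CD79A, MPO, TF, HAMP, CD14, MSR1, MRC1, CD163 and ALAS2 were named after their values were seen. Genes and lists were chosen with earlier results of these data known. The size and margin parts of the rules were run on simulated arrays with the same noise for every gene and no brightness limit. That run cannot show how the rules behave for noisier genes or between cultures. Python 3.11.15, pandas 2.3.3 and numpy 2.4.6 were used. Promoter windows and the FTL site come from RefSeq.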

Additional observations from a re-analysis of the deposited data

How the results depend on the processing

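SLC40A1 was the 1 gene higher by the 1.5-fold rule, and this held under every pseudocount, scaling, brightness limit and margin tried, and without probe sets ending in _x_at, an alternative chosen after seeing the data; FTL then has no probe set. With all probe sets of a gene averaged the count was 0. With single arrays left out it was 1 to 2, HMOX1 being added when knock-down replica 1 or empty-vector replica 2 was dropped. No gene was lower by this rule and none met the 2-fold rule in any setting. As reported, 8.51% of all measured genes were higher and 4.95% lower by the 1.5-fold rule, and 3.54% met the 2-fold rule. These shares of all measured genes were not counted in the other settings, so the counts there have no background beside them. The median difference of the 8 genes was 0.38 after scaling to a common median, which moved the median of all measured genes by 0.12. The median of the 8 genes stood 0.21 above that of all measured genes as reported and after this scaling. After quantile normalization it stood 0.16 above. Positive differences numbered 7 of 8 genes as reported and after quantile normalization. They numbered 8 after scaling to a common median and 5 with all probe sets averaged. Of all measured genes 55.2% were positive as reported, and that share was not counted in the other settings. The median of all measured genes was 0.05 as reported, 0.02 after quantile normalization, 0.17 after scaling to a common median and 0.01 with probe sets averaged. The median of the 8 genes was 0.18 after quantile normalization and 0.19 to 0.23 with single arrays left out. No paired analysis was possible because each condition is 1 RNA pool on 2 arrays and no test was made; replica numbers carry no culture. Precision is limited by the count of arrays, and detection calls were not used.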
